A study of Brassica napus with 6 samples.

Results

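Cleavage sites assigned to predicted miRNAs are the entries of the degradome tables whose miRNA is named novel_mir with a running number, and they made up 262 of 739 entries. The other 477 entries belong to known miRNAs with database names. The predicted miRNAs had 67 entries in the table of the long-silique line (LS) and 195 in that of the short-silique line (SS). These came from 114 miRNAs on 225 target mRNAs. The LS table breaks off early, at target BnaA09g07450D, so the totals of the lines cannot be compared. Up to that target there were 67 predicted entries in LS and 65 in SS. The study sought miRNAs of early silique development in rapeseed (Brassica napus), whose silique is the seed pod. Both lines were field-grown backcross progenies of the cross 8008 × 4942 that were told apart by silique length. For each line, pistils and young siliques covering days 0 to 7 after pollination were harvested, with about 12 plants for each stage. The stages share a library, so no value below belongs to a single day. There was 1 degradome library per line and there were 2 small RNA libraries per line, so the degradome values have no replicate and are given without a test.

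A plant miRNA guides an Argonaute protein to a nearly complementary site in an mRNA, and the mRNA is cut opposite the middle of the miRNA. The downstream fragment keeps a free 5′ end, and degradome sequencing reads such ends. Each deposited entry pairs a miRNA with a position in an mRNA and scores their alignment, with a p-value and 1 of 5 categories numbered 0 to 4. In schemes of this kind a score of 0 is a pairing without penalty, category 0 stands for the clearest peak of read ends on the mRNA, and category 4 for the weakest evidence. The definition used for these tables is not given in the sources used here, and the tables hold no read numbers at the site.

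The sequences below carry the points that follow and are written 5′ to 3′ in DNA letters, with miRNA bases 2 to 8 (the seed) in capitals. The first 4 show the pair of predicted miRNAs that shared sites with miR164, and the others are described below for their number of targets, their category 0 entries, an entry shared between the tables or the lowest score.
bra-miR164a: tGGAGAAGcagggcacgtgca
novel_mir_65: tGGAGTAGtagaacacgtgca
bra-miR164c-5p: tGGAGAAGcagggcacgtgcg
novel_mir_80: tGGAGTAGtagaacacgtgcg
novel_mir_24: tGAATGTCtttctcttcatc
novel_mir_43: gAAGATTGgaacattgggacc
novel_mir_37: tGATCTTGtgttgtgatgata
novel_mir_11: cAAGACGGatctcaggacaaccat
novel_mir_662: aGAAACAAgtggaagctgattta
novel_mir_359: tCTCAAACcgtgatgatggacg
novel_mir_830: tTACTCTTggacttggaccggtt
novel_mir_638: aGAGAAAAagagggtgttgaata
novel_mir_447: aGAAGAGActaagccgagcagca
novel_mir_487: aCCCATCGatctatcgacaatct
novel_mir_83: cCATTCGGgaaacaagaggaaca

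Target sites are printed the same way, with capitals on the bases that had no Watson-Crick partner in the deposited alignment. A miRNA base opposite a gap in the site leaves no mark, as with the 2 gaps of novel_mir_447 at BnaC04g33810D. The sites show a near-complete pairing, a pairing with more interruptions, and a site whose sequence is partly unknown (n).
novel_mir_37 at BnaC08g11590D: tatcatcacGacacaagatca
novel_mir_24 at BnaA03g56970D: gGtgaagagaaagacattcT
novel_mir_65 at BnaA02g09970D: AgcacgtgtCctGTtTctcca
bra-miR164a at BnaA02g09970D: AgcacgtgTcctgTttctcca
novel_mir_11 at BnaA03g14550D: atggtgtcTtgagatTcgtcAtg
novel_mir_662 at BnaA03g07490D: taaatcaActtccactCtgtttGt
novel_mir_447 at BnaC04g33810D: tgctgctcggTttagttctct
novel_mir_487 at BnaA01g12890D: aTatttcgGtgatcgatggAt
novel_mir_83 at BnaA04g13140D: tAttccTtcttgtttTccgatgA
novel_mir_638 at BnaAnng33710D: nnnnnnnnnnnctctCtCtctct

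Category 0 was held by a minority of the predicted entries in both tables. In the LS table it held 14 of 67 predicted entries (20.9%, Wilson 95% interval 12.9% to 32.1%), against 91 of 95 entries of known miRNAs (95.8%, 89.7% to 98.4%). In the SS table it held 38 of 195 (19.5%, 14.5% to 25.6%), against 267 of 382 for known miRNAs (69.9%, 65.1% to 74.3%). The intervals of the 2 kinds of miRNA did not overlap in either table. These intervals cover counting error only, and entries that share a miRNA or a target are not independent.

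The weak end of the scale was filled mainly by predicted miRNAs. Categories 3 and 4 together held 34 of 67 predicted entries in the LS table (50.7%, 39.1% to 62.3%) and 66 of 195 in the SS table (33.8%, 27.6% to 40.7%). For known miRNAs they held 2 of 95 and 5 of 382. The tables spread the predicted entries differently over the weaker categories, since category 4 was the most frequent in LS with 23 entries (34.3%) and categories 2 and 3 in SS with 60 (30.8%) and 54 (27.7%). Category 4 held 12 SS entries (6.15%). Of the 80 category 2 entries of known miRNAs in the SS table, 73 belonged to ahy-miR156c.

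**Figure D1:**
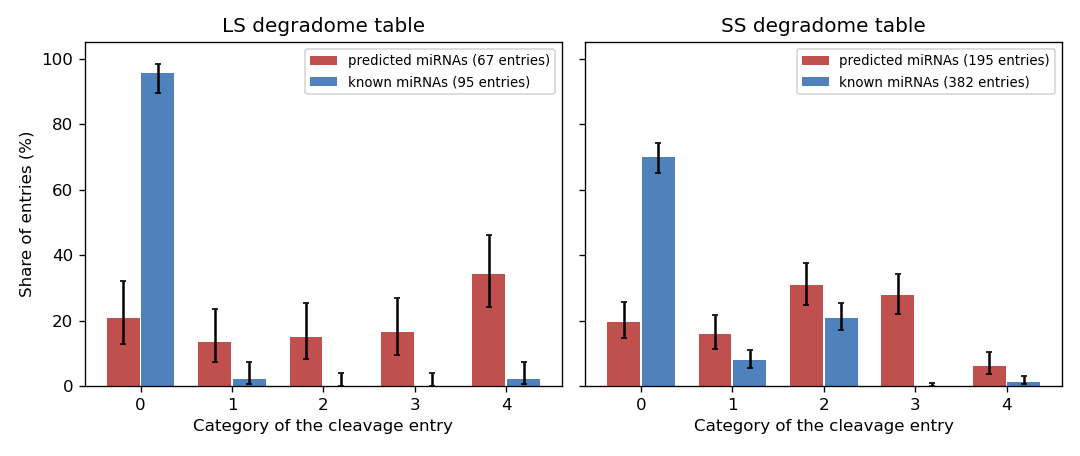
Share of entries (%) in each category, for predicted and known miRNAs in the LS and SS degradome tables; whiskers are Wilson 95% intervals that cover counting error only. Category 0 holds 20.9% and 19.5% of the predicted entries and 95.8% and 69.9% of the known ones.

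The pairing of the predicted miRNAs carried more penalty. Their median score was 3.5 in both tables, with a range of 1.5 to 4.5 in LS and 0.5 to 4.5 in SS, against a median of 2.0 for known miRNAs in both. A score of 2 or lower occurred in 2 of 67 predicted entries in LS (2.99%) and 9 of 195 in SS (4.62%), against 64 of 95 (67.4%) and 202 of 382 (52.9%) for known miRNAs. Within category 0 the predicted entries had a median score of 4.0 in both tables, so category 0 did not go with low penalties. The deposited p-values had medians of 0.018 (LS) and 0.024 (SS) for predicted and 0.002 for known miRNAs in both tables, and none exceeded 0.048.

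The kind of interruption differed as well. At least 1 gap was drawn in 55 of 66 predicted alignments in LS (83.3%, 72.6% to 90.4%) and 131 of 170 in SS (77.1%, 70.2% to 82.7%), against 18 of 95 (18.9%, 12.3% to 28.0%) and 136 of 382 (35.6%, 31.0% to 40.5%) for known miRNAs. The median number of mismatches was 1.0 for both kinds in both tables. Each base of the seed was paired, G:U included, in 18 of 66 (27.3%) and 61 of 170 (35.9%) predicted alignments. For known miRNAs this held in 80 of 95 (84.2%) and 271 of 382 (70.9%). Extra target bases lying between seed bases were not counted as interruptions here. Bases 10 and 11, which flank the cut, were paired, G:U included, in every alignment of both kinds. Whether an entry had to meet this to be listed is not given in the sources used here. The counts of this paragraph leave out sites with unknown bases and the last LS entry, of novel_mir_371, which breaks off before its sequence.

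**Figure D2:**
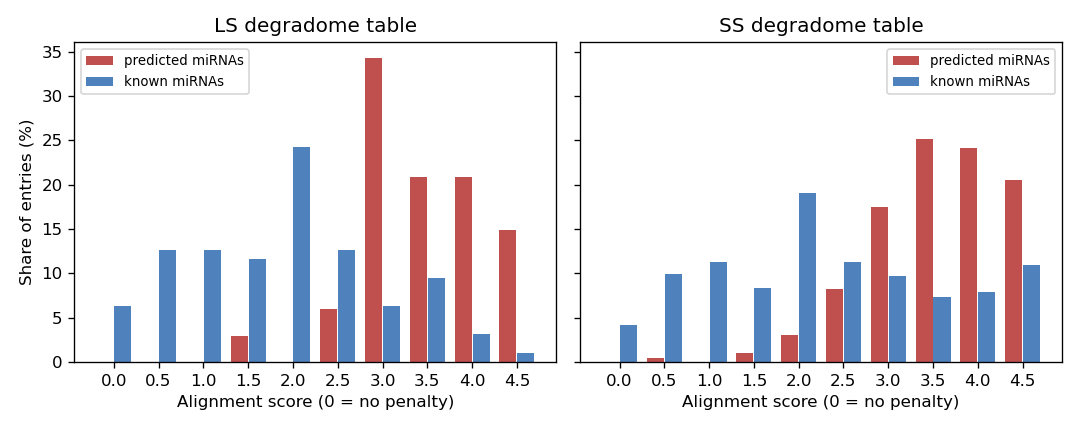
Share of entries (%) at each alignment score, where 0 is no penalty, for predicted and known miRNAs in each table. Predicted entries gather at 3 and above with a median of 3.5, and known entries have a median of 2.0.

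The predicted miRNAs of the tables were mostly 23 nt long. Plant miRNAs are commonly 21 nt long and often begin with U, a base favoured by the main cleaving Argonaute. Of 113 predicted miRNAs with a sequence, 79 had 23 nt (69.9%, 60.9% to 77.6%), 16 had 21 nt (14.2%) and 15 had 22 nt (13.3%). There were 2 of 20 nt, and novel_mir_11 had 24 nt. Of the 32 known miRNAs, 26 had 21 nt and 0 had 23 nt. A first base T was found in 46 of 113 predicted (40.7%, 32.1% to 49.9%) and 23 of 32 known miRNAs (71.9%, 54.6% to 84.4%). The last base was A in 71 of 113 predicted miRNAs (62.8%, 53.6% to 71.2%), and in 60 of the 79 with 23 nt (75.9%), against 9 of 32 known ones (28.1%, 15.6% to 45.4%).

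Category 0 was unevenly spread over lengths in the SS table. It held 16 of 23 entries of 21-nt miRNAs (69.6%, 49.1% to 84.4%) and 16 of 137 entries of 23-nt miRNAs (11.7%, 7.32% to 18.1%). In the LS table the shares were 1 of 11 and 6 of 37 (16.2%), so the SS pattern was not seen there. The 21-nt share in SS rested largely on novel_mir_65, novel_mir_80 and novel_mir_43, which gave 5, 6 and 4 category 0 entries. All 5 entries of 20-nt miRNAs were in category 0 in each table. In LS these were the entries of novel_mir_24, and in SS 4 of the 5 were.

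**Figure D3:**
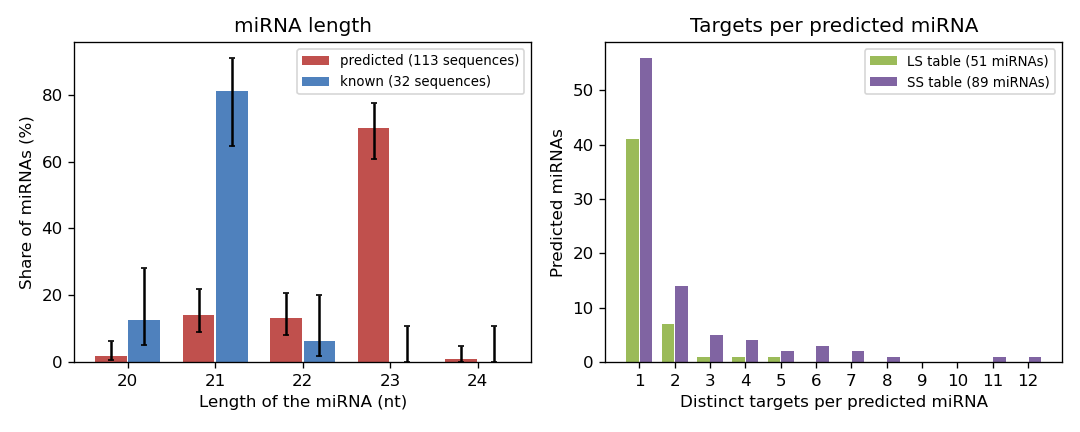
Left, share of predicted and known miRNAs (%) by length in nt, with Wilson 95% intervals for counting error; right, number of predicted miRNAs by their count of distinct targets in the LS and SS tables. Most predicted miRNAs have 23 nt (69.9%) and 1 target. The LS table breaks off early, so its target counts are not comparable with those of SS.

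Most predicted miRNAs had a single target. In LS 41 of 51 had 1 target (80.4%, 67.5% to 89.0%) and in SS 56 of 89 (62.9%, 52.5% to 72.2%). Known miRNAs had medians of 3.5 and 10 targets. Because the LS table breaks off early, its targets per miRNA cannot be set against those of SS as a difference between the lines. In the LS table novel_mir_24 led with 5 targets, followed by novel_mir_11 with 4 and novel_mir_83 with 3. Another 7 predicted miRNAs had 2 each (novel_mir_185, novel_mir_528, novel_mir_617, novel_mir_672, novel_mir_800, novel_mir_830 and novel_mir_851). In the SS table novel_mir_11 had 12 targets, novel_mir_662 had 11, novel_mir_359 had 8, and novel_mir_638 and novel_mir_830 had 7 each.

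In the SS table the miRNAs with the longest target lists had few category 0 entries. All 11 entries of novel_mir_662 and all 8 of novel_mir_359 were in category 2. Those of novel_mir_11 were in category 2 (10 entries) and category 3 (2 entries), and those of novel_mir_830 in category 3 (6) and category 4 (1). The 14 entries of novel_mir_638 were in category 0 (1), category 1 (8) and category 3 (5). The pair novel_mir_80 and novel_mir_65 went the other way, with all 6 and all 5 entries in category 0. In the LS table the longest list, of novel_mir_24 with 5 targets, was in category 0 throughout. Of the predicted miRNAs with more than 1 entry, 9 of 10 in LS and 27 of 33 in SS had all their entries in 1 category. All entries of 9 of 10 and 27 of 33 also carried 1 p-value, although their scores were alike in only 2 of 10 and 10 of 33. The entries of a miRNA are therefore not separate observations.

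**Figure D4:**
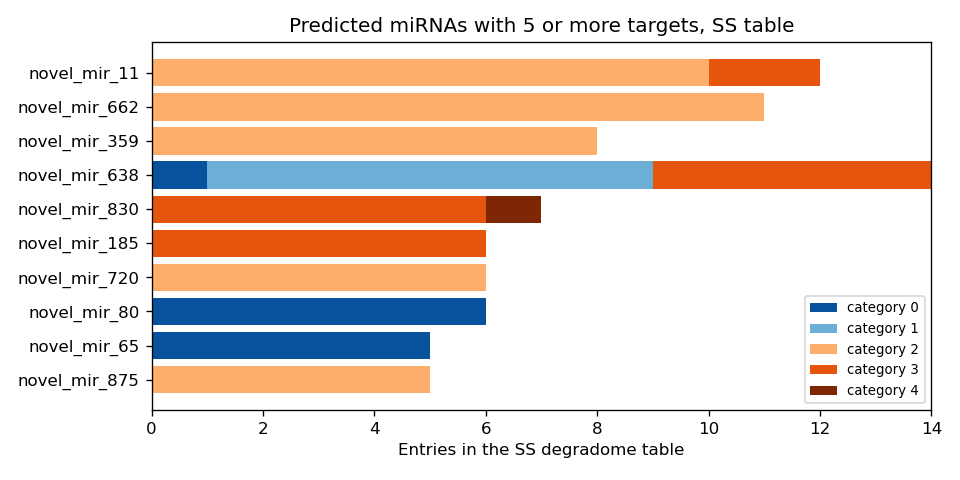
Number of SS entries in each category for the 10 predicted miRNAs with 5 or more targets. Blue marks categories 0 and 1, and novel_mir_80 and novel_mir_65 are the bars made up of category 0 alone.

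Part of the SS list repeats a site across mRNAs, as the entries of known miRNAs do to a greater extent. The 195 SS entries came from 133 different pairs of a miRNA and a site sequence, and 100 entries used a site found in more than 1 entry. The most repeated site was that of novel_mir_11, printed above, which occurred in 10 targets. The 67 LS entries came from 62 such pairs, and 8 entries used a repeated site. For known miRNAs 290 of 382 SS entries and 65 of 95 LS entries used one. Since the LS table breaks off early, a repeat on a later target could not be counted there, and the LS and SS numbers are not comparable.

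Rapeseed is an allotetraploid with an A subgenome from Brassica rapa and a C subgenome from Brassica oleracea, named in the target identifiers. The SS targets of predicted miRNAs were split almost evenly, with 89 on A and 93 on C (48.9% on A, 41.7% to 56.1%). Targets of known miRNAs had 117 of 251 on A (46.6%, 40.5% to 52.8%), and the intervals overlap widely. In category 0, 16 of 38 predicted entries were on A (42.1%, 27.9% to 57.8%). Of the 33 predicted miRNAs with more than 1 SS target, 29 had targets on both subgenomes. The LS table stops inside chromosome A09 and lists no C target, so this split is from SS alone. For 0 of the 225 targets did the gene table used here hold an entry, and they are given by identifier.

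Up to BnaA09g07450D, the last target of the LS table, the lines could be compared entry by entry. Of the 67 LS entries of predicted miRNAs, 23 were also in the SS table with the same miRNA, target and position (34.3%, 24.1% to 46.3%), and these were 23 of the 65 SS entries in that range (35.4%, 24.9% to 47.5%). For known miRNAs 79 of 95 LS entries were shared (83.2%, 74.4% to 89.4%), or 79 of 128 SS entries (61.7%, 53.1% to 69.7%). The 95 known LS entries lay at only 57 different positions, so some positions count more than once in the known share. The 67 predicted LS entries lay at 67 positions. A predicted LS entry missing from SS was not shown to be absent there, since read depth at the sites is unknown.

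Shared predicted entries often changed category. Only 9 of 23 kept it, 8 had a lower number in SS and 6 a higher one, whereas 71 of 79 shared known entries kept theirs. Category 0 in both tables was held by 3 predicted entries. These were novel_mir_487 at position 438 of BnaA01g12890D (score 4.5, p = 0.038 in LS and 0.02 in SS in the authors' deposited tables), novel_mir_24 at position 138 of BnaA03g56970D (score 1.5, p = 0.002 in both) and novel_mir_83 at position 530 of BnaA04g13140D (score 4.5, p = 0.022 and 0.016). The entry of novel_mir_662 at position 477 of BnaA03g07490D was in category 0 in LS with a deposited p of 0 and in category 2 in SS with 0.03. The entry of novel_mir_244 at position 677 of BnaA03g53550D was in category 1 in LS and 0 in SS.

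The remaining shared entries were in categories 1 to 4 in both tables. novel_mir_11 had 4 of them, all at position 422 of BnaA03g14550D, BnaA03g14630D, BnaA04g18190D and BnaA04g18210D, in category 2 in LS and in 2 or 3 in SS. novel_mir_528 was shared at BnaA01g01980D and BnaA08g14990D (category 3 in LS, 2 in SS), and novel_mir_185 at position 58 of BnaA01g30630D and BnaA05g26690D (category 4 in LS, 3 in SS). Single shared entries belonged to novel_mir_77, novel_mir_84, novel_mir_100, novel_mir_106, novel_mir_179, novel_mir_186, novel_mir_289, novel_mir_434, novel_mir_830 and novel_mir_875. Of the 44 LS entries not found in SS, 10 were in category 0 and 18 in category 4.

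**Figure D5:**
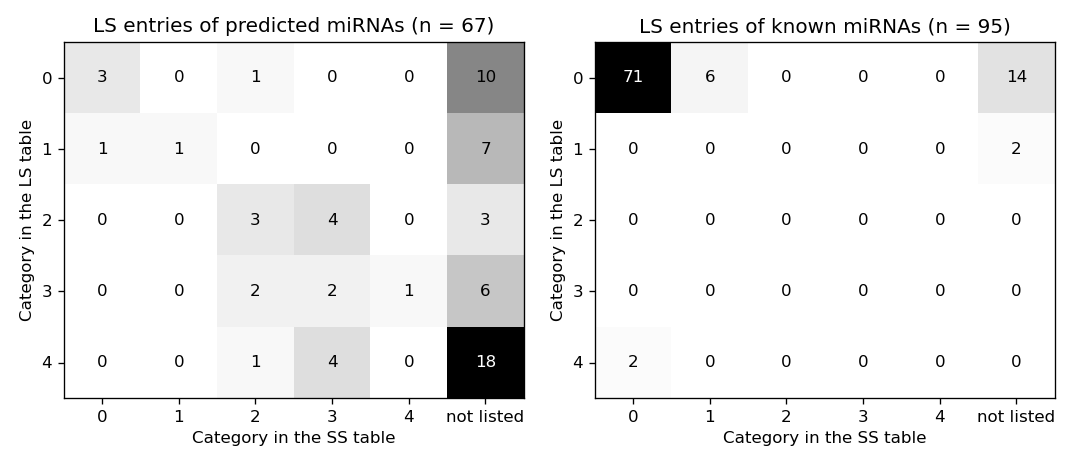
LS entries by category in LS (rows) and in SS (columns, with "not listed" for entries not found in SS), for predicted miRNAs (left) and known miRNAs (right), up to the last LS target. Of 67 predicted entries 44 are not listed in SS and 3 are in category 0 in both tables, against 71 of 95 known entries in category 0 in both.

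The category 0 entries with the smallest p-values were led by novel_mir_662 in LS, described above, and by novel_mir_447 at position 31 of BnaC04g33810D in SS (score 2.5, deposited p of 0). Entries of novel_mir_24 filled the rest of the leading 5 in LS. They were at position 138 of BnaA03g56970D and of BnaA05g05100D (score 1.5 each), position 4550 of BnaA08g12070D (score 3.0) and position 47 of BnaA05g36010D (score 4.5). In SS this miRNA was at position 138 of BnaA03g56970D and of BnaC03g25440D. All its entries, 5 in LS and 4 in SS, were in category 0 with p = 0.002 in the authors' deposited tables. The site at position 138 was the same sequence in all 3 mRNAs, from the A and the C subgenome.

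A pair of miRNAs chosen after their values were seen also stood out. novel_mir_43 had 4 SS entries, all in category 0, with scores of 2.5 or 4.0 and a deposited p of 0.042, on BnaA06g06260D, BnaA09g03940D, BnaC05g08010D and BnaCnng24950D. novel_mir_37 had the lowest score of all predicted entries, 0.5, at position 538 of BnaC08g11590D in SS, in category 1.

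Of the 38 SS category 0 entries, 10 lay exactly where the tables also place cleavage by miR164. This known family targets mRNAs of NAC-domain transcription factors in Arabidopsis and other plants. novel_mir_65 and novel_mir_80 were each assigned to position 816 of BnaA02g09970D, 696 of BnaA03g33770D, 705 of BnaC01g36350D, 816 of BnaC02g13890D and 696 of BnaC03g38960D. At all 5 positions bra-miR164a and bra-miR164c-5p also had category 0 entries, with a score of 2 against 4 for the predicted miRNAs. The deposited p was 0 or 0.002 for the miR164 entries and 0.026 for the predicted ones. With 1 cut position per mRNA, the degradome entry cannot say which of the 4 miRNAs made the cut.

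The similarity lies in the miRNAs themselves. Counted from 1 at the 5′ end, with the base of miR164 first, novel_mir_65 differs from bra-miR164a by A6T, C9T, G12A and G13A, and novel_mir_80 differs from bra-miR164c-5p by the same 4 substitutions. novel_mir_65 and novel_mir_80 differ by A21G. Between the 113 predicted and 32 known sequences no pair had 3 or fewer mismatches over at least 16 nt. Besides these pairs, which align over 21 nt, only novel_mir_447 had 4, against ath-miR156g and bra-miR156g-5p over 16 nt. None of the predicted miRNAs shared its seed with a known miRNA of the tables. The 113 predicted sequences had 110 seeds, with shared seeds in novel_mir_65 and novel_mir_80, novel_mir_77 and novel_mir_720, and novel_mir_460 and novel_mir_794. The 10 entries were 26.3% of the SS category 0 entries (15.0% to 42.0%), and no predicted LS entry lay at a known site.

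Another 25 SS entries (12.8%, 8.84% to 18.2%) had sites with 6 to 12 unknown bases, all within the first 56 positions of the mRNA. They came from 12 predicted miRNAs on 17 targets, and 14 of them were the entries of novel_mir_638. All 240 unknown bases were drawn as paired, so the scores of these entries count unknown bases as matches. No LS entry and no entry of a known miRNA had such a site. All of these SS entries but that on BnaA06g16590D lay beyond the last LS target. Their absence from LS therefore says little about the line. The sites of novel_mir_638 were CT repeats next to the unknown bases, and in BnaAnng33710D its 3 entries ran from position 51 to 55. Of the 5 SS category 0 entries with the smallest p, 2 were of this kind, novel_mir_451 at position 50 of BnaC01g41580D and novel_mir_638 at position 52 of BnaAnng37820D.

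With both sets of SS entries left out, 26 category 0 entries of 20 predicted miRNAs remained in SS, with a median score of 4.25, and 5 of them scored 3 or lower. The LS table had 14 category 0 entries from 10 predicted miRNAs, of which 6 scored 3 or lower. Entries within the first 100 positions made up 10 of 67 predicted entries in LS (14.9%) and 43 of 195 in SS (22.1%), including the 25 with unknown bases. For known miRNAs they were 0 of 95 and 25 of 382 (6.54%).

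Targets with more than 1 predicted miRNA were few. In LS this was BnaA03g07490D, assigned to novel_mir_341 and novel_mir_662, out of 66 targets. In SS it was 6 of 182, namely the 5 targets shared with miR164 and BnaAnng36610D, where novel_mir_463 and novel_mir_835 share position 51 on a site with unknown bases.

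The small RNA counts can be tied to these miRNAs only through the running number, since the count tables give no sequences. There the count in LS library 1 was equal or lower at each of the 393 steps from number 1 to 394, while the degradome tables run up to number 886. Whether a number means the same miRNA in both could not be checked, and the values below depend on it. Of the 114 predicted miRNAs with cleavage entries, 51 had a number in the count tables, and 24 of these had 3 or fewer reads in every library. Library totals ranged from 6046506 to 6739286 reads. The difference between both LS libraries was within counting noise (chi-square per degree of freedom 0.98 for known and 0.941 for predicted miRNAs) and they entered the test as 1 sample. The spread in the test therefore came from the SS libraries alone, which differed by more than counting noise for known miRNAs (1.42, exact binomial p = 0.0117 over 10000 draws), while for predicted ones the value was 0.881 (p = 0.978, same exact test).

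Only 7 numbers had 10 or more reads in at least 2 libraries, and 2 of them passed edgeR's quasi-likelihood test (Benjamini-Hochberg adjusted p under 0.05). Over all miRNAs tested the share was 25.2% (30 of 119), with 12.6% higher and 12.6% lower in SS. Number novel_mir_11 passed, with 45 and 28 reads in LS and 0 in each SS library. It met the read filter through the LS libraries alone, so its entry into the test depended on the line where it was high. The degradome table of SS nonetheless assigned 12 targets to novel_mir_11. Number novel_mir_8 had 60 and 65 reads in LS and 120 and 104 in SS, or 9.51 RPM (reads per 1000000 of the library total, 95% Poisson interval 7.91 to 11.3) against 18.0 ± 2.55 (SD, n = 2). It passed with a log2 fold change of 0.53 ± 0.16 (SE, edgeR) after TMM scaling. On the library totals that RPM uses, its log2 fold change was 0.92. Its only cleavage entry was in category 4. The call was lost in DESeq2 (adjusted p = 0.541), in edgeR on predicted miRNAs alone (adjusted p = 0.272) and without SS library 1. The call of novel_mir_11 was lost in edgeR on predicted miRNAs alone (adjusted p = 0.0612), and with LS library 1 or LS library 2 left out it was not tested.

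The other 5 did not pass. Number novel_mir_24 had 26 and 23 reads in LS and 22 and 29 in SS, so its libraries overlapped between the lines. novel_mir_4 had 227 and 227 against 256 and 265, novel_mir_37 had 15 and 34 against 35 and 35, novel_mir_43 had 13 and 6 against 5 and 12, and novel_mir_77 had 7 and 13 against 12 and 13. The numbers of the pair placed at miR164 sites were below the filter, with 8 and 6 reads in LS and 5 and 8 in SS for novel_mir_65, and 7 and 3 against 7 and 10 for novel_mir_80.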

How the data were processed

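The members and lists were chosen with earlier results of these data known. Degradome and small RNA libraries (18 to 30 nt) were made from total RNA, per the labels' protocols. The deposited degradome tables give a position, an alignment score, a category and a p-value as text for each entry. Neither aligner, genome build, assignment program nor miRNA prediction method is stated (not given in the sources used here). Per the file headers, the deposited counts are whole reads per miRNA with the authors' library total. The authors' RPM values are the count per 1000000 reads of that total, with 0.01 for 0, and the authors' log2 fold change and p-value compare 1 library with 1 library; none of these 3 was used.

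Entries were read as blocks of 4 lines with Python 3.11.15. Shares carry Wilson 95% intervals (SciPy 1.17.1). The LS table breaks off inside its last entry, so lines were compared up to that target. Pairing was read from the deposited alignments, in which G:U counts as no Watson-Crick pair. Named miRNAs were the 5 with the most targets per table (ties up to 8), those with an entry in both tables, those close to a known miRNA (at least 16 nt, at most 3 mismatches; none) and the owners of the 5 category 0 entries with the smallest p; the targets hit by the most predicted miRNAs were named too. novel_mir_4, novel_mir_8 and the pairs compared by seed were named as members tested or shared.

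Counts were tested with edgeR 4.0.16 in R 4.3.3 (quasi-likelihood, TMM, two-sided, LS libraries summed) on 52 known and 67 predicted miRNAs with 10 or more reads in at least 2 libraries. RPM levels were computed from the counts and library totals. Alternatives were RLE factors, library totals, no filter, DESeq2 1.42.0, a replicate block and left-out libraries. The p-values reflect only how these libraries vary, and that variation may be technical. On simulated counts for this comparison (119 features, 20 rounds), 85.5% of 4-fold changes were recovered. The simulation used a fixed dispersion that was not estimated from these data, and it pooled known and predicted miRNAs. Its result does not describe predicted miRNAs alone or smaller changes.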

Additional observations from a re-analysis of the deposited data

How the results depend on the processing

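Of 51 alternatives over all results, 39 were classed as keeping the value and 12 as moving it. For shares and medians, 33 of 40 stayed within the interval or quartiles (5 of them by leaving every entry in place) and 7 moved. The number of edgeR calls has no spread, and 3 calls against 2 were classed as kept. For the category 0 share of predicted miRNAs, 3 of 14 alternatives left every entry in place and so could not move it (a deposited p of 0.05 or lower in both tables, and each target position once in LS). Of the other 11, 10 stayed within its interval. With each miRNA counted once, in category 0 if any of its entries was, it was 25.8% in SS. Among the alternatives added after seeing the data, leaving out entries at known sites gave 15.1% in SS, and leaving out novel_mir_24 gave 14.5% in LS. The known share moved more. With each miRNA counted once in the same way it was 100% in LS and 96.9% in SS; this count favours miRNAs with many targets, and known miRNAs had a median of 10 in SS against 1. In SS it was 60.7% with each target position once, 62.9% with each miRNA and site once, 75.6% at scores of 4 or lower, and 86.4% without ahy-miR156c. The last and the once-per-site setting were added after seeing the data.

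Of the 2 numbers that passed edgeR, both also passed with the LS libraries kept separate, and again in that fit with a replicate block (2 calls). Fitted on predicted miRNAs alone, 0 passed in edgeR (2 at an unadjusted p under 0.05; DESeq2 on all miRNAs called 1). DESeq2 called novel_mir_11 alone. With each library left out in turn, 1 to 2 passed. novel_mir_8 was lost without SS library 1, and novel_mir_11 was lost without either LS library, because it then had only 1 library with enough reads and was not tested. With the library totals 3 passed, novel_mir_4 being added, and the median log2 fold change of all tested miRNAs was 0.37 in place of -0.01. Depth at the cleavage sites is unknown, and of the 114 predicted miRNAs 44 had too few small RNA reads for a test and 63 had no number in the count tables.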
